A study of Rattus norvegicus with 6 samples.

Results

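The small intestine takes up dietary calcium in a chain of steps that depends on vitamin D. Calcium enters the enterocyte through the channel Trpv6, is carried across the cell by the calcium-binding protein S100g (calbindin-D9k), and leaves at the base of the cell through the plasma membrane calcium pump Atp2b1. Hormonally active vitamin D binds the receptor Vdr, which pairs with the retinoid X receptor Rxra to activate its target genes. Trpv6 and S100g are among these targets, and so is Cyp24a1, the enzyme that breaks down active vitamin D. The receptor Casr senses calcium outside the cell.

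These 7 genes were followed in the jejunum, the middle segment of the small intestine, of rats exposed to heat and shaking. All probes whose RefSeq accession belongs to one of them were taken. This gave 7 probes for 6 of the 7 genes, out of 41012 probes on the array, of which 17512 could be named in this way for 13837 genes. No probe was matched to Rxra by accession, so its level is not reported here. Atp2b1 had 2 probes and each of the other 5 genes had 1.

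The stressed rats (S3d group) spent 2 h of each of 3 days at 35°C under shaking at 0.1 g, and the control group was not stressed. Both groups had been housed at 25°C and 60% humidity beforehand. All animals were male Sprague-Dawley rats of 6 weeks and 200 ± 20 g, and jejunal tissue was used whole after rinsing and mincing. Each group was measured on 3 one-colour arrays, and each array received RNA pooled from 3 rats. The series text gives 10 rats per group and the paper fewer, and no source says that the pools shared no animal, so p-values measure the spread between these pools.

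Levels are given as the log2 of the processed signal, the spot brightness after background subtraction, after taking away that array's own 75th percentile. A level of 0 therefore means a probe as bright as the 75th percentile, and levels of different probes are not compared. Differences are S3d minus control, by the labels of the scanner files. This direction opposes that of the study: all 6 columns of its normalized table ranked the probes as did the opposite group's scanner file of that replicate number (Spearman's rho above 0.999 over 40538 probes), while rho with their own sample's file was 0.942 to 0.953. No sample was reassigned.

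Each group occupied a slide of its own, and 450 days passed between the scans of the 2 slides, so group, slide and scan cannot be told apart. The processed signal had a 75th percentile of 415 to 430 on the control arrays and 1458 to 1558 on the S3d arrays, and 69.1% to 73.7% and 77.5% to 81.5% of the spots were well above background. Of 31367 probes tested with limma over the whole array, 74% were called at a Benjamini-Hochberg adjusted p under 0.05, 39.5% higher and 34.5% lower on the S3d arrays. The median difference over the tested probes was 0.08 on the log2 scale. It fell with the signal, from 2.13 in the 815 dimmest probes to -1.32 in the 53 brightest, and this course is given beside each gene.

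Of the 7 probes, all of which were tested, 4 were called higher (both probes of Atp2b1, Cyp24a1 and Casr), 1 lower (S100g) and 2 were not called (Trpv6 and Vdr), against 74% of all tested probes called. The groups did not overlap for S100g, Cyp24a1 and both Atp2b1 probes, which is 4 of 7, against 78.9% of 31137 probes with a value on every array. Both shares are below the background, so the counts are no result about these genes. The single genes and their levels are described in the order in which calcium crosses the cell.

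**Figure D1:**
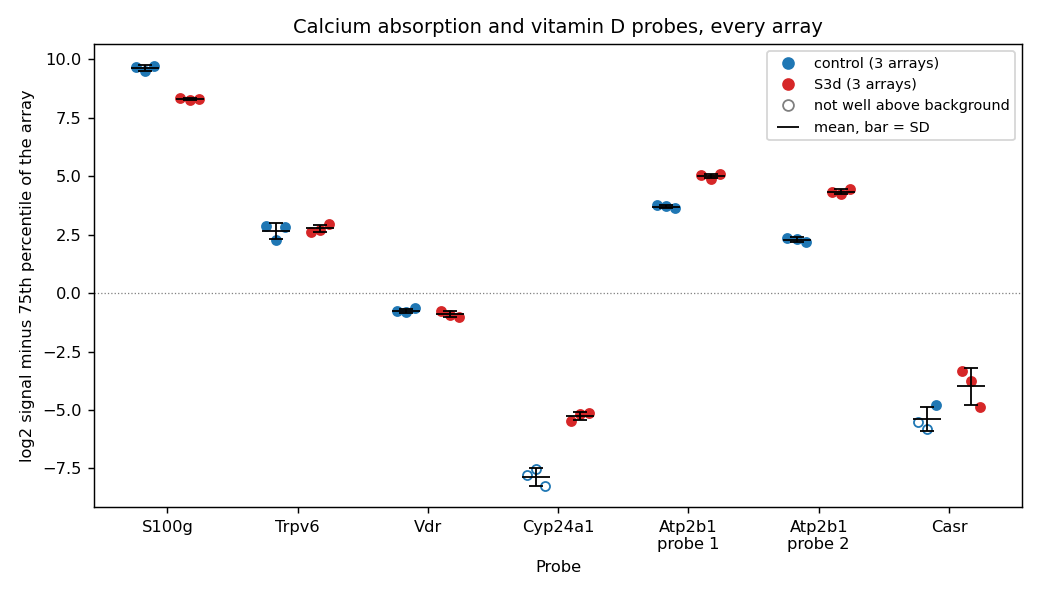
Log2 signal minus the 75th percentile of the array (vertical axis) for the 7 probes (horizontal axis), with 1 point per array, 3 control and 3 S3d; bars are means with SD, and open points were not well above background. S100g lay lower and both Atp2b1 probes higher on all S3d arrays, Trpv6 and Vdr overlapped, and the Cyp24a1 points of all control arrays are open.

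Trpv6, the entry channel (probe A_44_P494274), was read well above background on every array. Its level was 2.85, 2.26 and 2.84 on control arrays 1, 2 and 3, and 2.63, 2.71 and 2.94 on S3d arrays 1, 2 and 3. The groups overlapped, with control 2 the lowest and S3d 3 the highest of the 6 values. The means were 2.65 ± 0.34 and 2.76 ± 0.16 (SD, n = 3 each). The log2 fold change was 0.11 (95% confidence interval -0.35 to 0.56, limma adjusted p = 0.62). Under this scaling the interval holds no change of 1.5-fold or more in either direction, and the sign turned to -0.09 without control replicate 2 and to -0.09 with median centring. The 1779 probes of this signal level had a median of -0.19.

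S100g, the calcium carrier of the enterocyte (probe A_43_P11444), was lower on all arrays labelled S3d under the percentile scaling. Its level was 9.68, 9.48 and 9.71 on the control arrays and 8.32, 8.27 and 8.29 on the S3d arrays. The groups lay more than 1 log2 unit apart and the S3d arrays were nearly identical to each other. The means were 9.62 ± 0.12 and 8.29 ± 0.02 (SD, n = 3 each), a log2 fold change of -1.33 (95% confidence interval -1.53 to -1.13, limma adjusted p = 3.7e-05), or 2.51-fold lower.

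That difference depended on how the arrays were put on a common scale. Before scaling, the processed signal of S100g was higher on the S3d arrays, 465300 to 489300 against 305900 to 359500 in the control group. No spot was saturated, and the brightest spot of each array read 469090 to 511160 in the control group and 673290 to 704120 in the S3d group. S100g rose by less than the array as a whole, with a log2 fold change of 0.52 without scaling (adjusted p = 0.00089) where the median of all tested probes was 1.93. With quantile normalization, which gives every array the same distribution of values, the difference was -0.06 (adjusted p = 0.51). In the deposited table it was -0.06 by its own labels and 0.06 with the labels exchanged (adjusted p = 0.48 for both).

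The value of S100g also lay at that of its signal level. The 53 probes with a mean level of 8 or more had a median log2 fold change of -1.32, with 10th and 90th percentiles of -1.79 and -0.59, and S100g stood at -1.33. The plot of difference against signal level shows S100g at the bright end of this course.

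**Figure D2:**
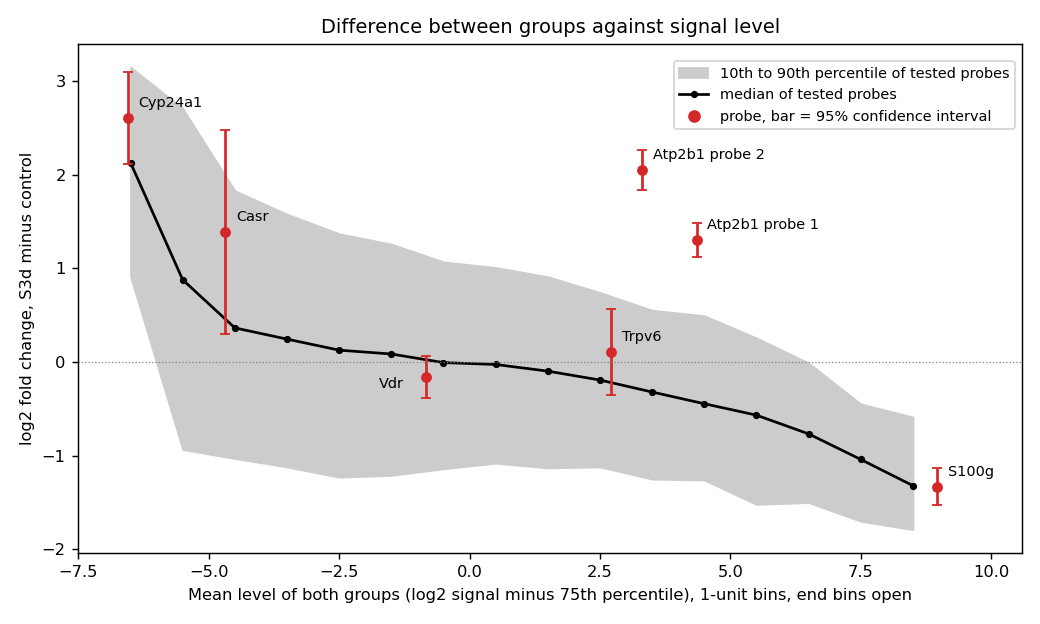
Log2 fold change of S3d minus control (vertical axis) against the mean level of both groups (horizontal axis); the black line is the median and the grey band the 10th to 90th percentile of all tested probes in bins of 1 log2 unit, with open end bins, and red points are the 7 probes with 95% confidence intervals. Both Atp2b1 probes lie above the band, at 1.31 and 2.05, while S100g, Trpv6, Vdr, Cyp24a1 and Casr lie between the percentiles of their own bin.

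Atp2b1, the pump that moves calcium out of the enterocyte, was higher on the S3d arrays at both of its probes. The first probe (A_44_P245665) read 3.75, 3.72 and 3.63 on the control arrays and 5.04, 4.90 and 5.08 on the S3d arrays. The second (A_43_P12761) read 2.35, 2.32 and 2.17 on the control arrays and 4.31, 4.23 and 4.44 on the S3d arrays. Neither probe overlapped between the groups, and within a group each varied by far less than the groups were apart.

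The first probe rose by a log2 fold change of 1.31 (95% confidence interval 1.12 to 1.49, limma adjusted p = 3.4e-05), or 2.47-fold. The second rose by 2.05 (95% confidence interval 1.84 to 2.26, limma adjusted p = 1.6e-05), or 4.14-fold. Both probes agree in direction and their intervals do not meet, and whether they read different transcripts of the gene was not tested.

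The rise of Atp2b1 went against the course of the other probes of its level. Probes as bright as the first had a median of -0.45 and a 90th percentile of 0.50 (722 probes), and those as bright as the second had -0.32 and 0.55 (1204 probes). Under quantile normalization the rises were 1.73 and 2.32, and without scaling 3.15 and 3.89, above the 1.93 of the median probe. The exception in significance was the first probe under normexp background correction (log2 fold change 1.91, adjusted p = 0.051). By its own labels the deposited table gave -1.73 and -2.32, so the direction rests on which of the 2 sets of labels is right. The S3d spots of both probes were read from the low-gain scan of the slide and the control spots from the high-gain scan, and the part of this in the difference was not tested.

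**Figure D3:**
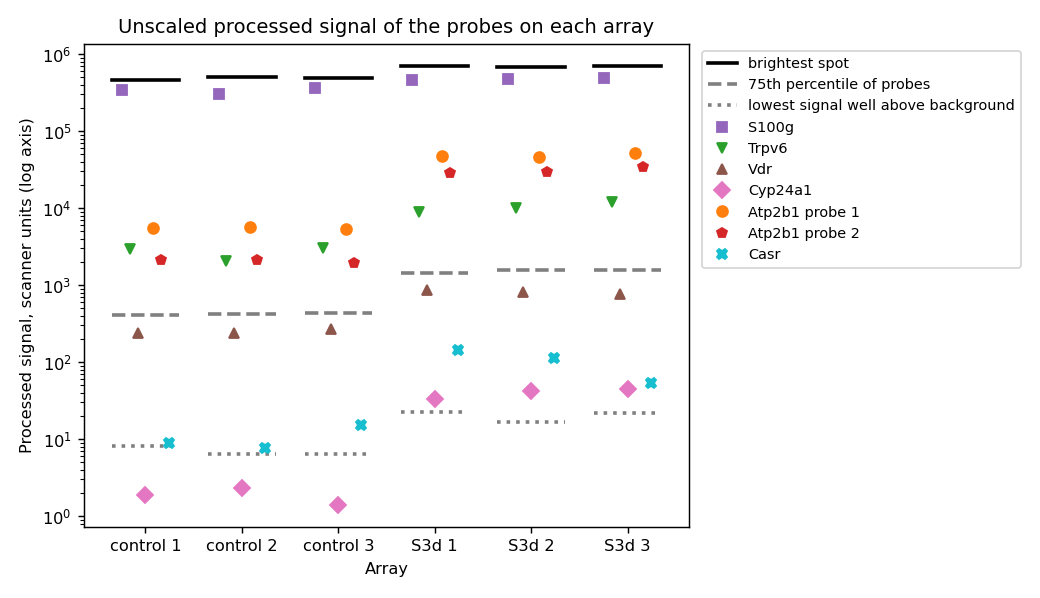
Processed signal before any scaling between arrays (vertical log axis, scanner units) of the 7 probes on each of the 6 arrays (horizontal axis), with lines at the brightest spot, the 75th percentile of the probes and the lowest signal well above background of each array. S100g lies close below the brightest spot on all 6 arrays, and Cyp24a1 lies below the lowest clear signal on all 3 control arrays.

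Vdr, the vitamin D receptor (probe A_44_P276492), read -0.78, -0.82 and -0.66 on the control arrays and -0.76, -0.95 and -1.02 on the S3d arrays. The groups overlapped, since S3d 1 lay among the control values, while S3d 2 and 3 lay below them. The means were -0.75 ± 0.08 and -0.91 ± 0.13 (SD, n = 3 each). The log2 fold change was -0.16 (95% confidence interval -0.38 to 0.07, limma adjusted p = 0.16), and the 3163 probes of this level had a median of -0.01.

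Vdr passed the threshold as lower without S3d replicate 1 (log2 fold change -0.23, adjusted p = 0.047) and with median centring (-0.36, adjusted p = 0.013). Normexp with outlying backgrounds replaced also called it lower (-0.34, adjusted p = 0.0017). In each of these 3 settings the change stayed below 1.5-fold. Without scaling it was 1.69, below the 1.93 of the median probe.

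Cyp24a1, the vitamin D 24-hydroxylase (probe A_43_P19543), was not well above background on any control array and was so on all 3 S3d arrays. Its processed signal was 1.88, 2.32 and 1.404 on the control arrays and 33.2, 42.9 and 45.0 on the S3d arrays. On the control arrays the spot itself read 36 to 38 beside a local background of 35 to 38, and on the S3d arrays 81 to 97.5 beside 34 to 38. The control spots were thus as dark as the glass around them, and the S3d spots were dim but clear.

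On the log2 scale Cyp24a1 read -7.79, -7.52 and -8.26 on the control arrays and -5.45, -5.18 and -5.11 on the S3d arrays, without overlap. Set against the lowest signal well above background on the control arrays, Cyp24a1 was at least 1.77-fold higher on the S3d arrays (limma adjusted p = 8.8e-05 for the measured values). The measured difference of 2.61 is no estimate of size, because the control value is only a bound. The 815 probes with a mean level under -6 had a median of 2.13 and a 90th percentile of 3.15. Of all tested probes 3576 passed the filter on dim probes through the S3d group alone, Cyp24a1 and Casr among them.

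The direction of Cyp24a1 depended on the background correction. Quantile normalization gave 2.23, but normexp gave -1.75 (adjusted p = 0.13), and normexp with outlying backgrounds replaced gave -0.89 (adjusted p = 5.6e-06), where the median of all tested probes was -0.42. Under the filter that requires a clear signal on all 6 arrays the probe was not tested.

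Casr, the calcium-sensing receptor (probe A_43_P11765), was well above background on 1 of 3 control arrays and on all 3 S3d arrays. It read -5.52, -5.81 and -4.80 on the control arrays and -3.35, -3.78 and -4.85 on the S3d arrays. The groups overlapped, since control 3 lay just above S3d 3. The log2 fold change was 1.39 with a wide 95% confidence interval of 0.30 to 2.48 (limma adjusted p = 0.030), and the 3681 probes of this level had a median of 0.37.

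The Casr call was lost in 4 of the 6 fits that left out 1 array. Without control replicate 1 or 2, or S3d replicate 1 or 2, the difference was 1.06 to 1.31 with adjusted p-values of 0.075 to 0.09. It was also lost with quantile normalization (0.90, adjusted p = 0.13). Normexp with outlying backgrounds replaced turned it to -0.63 (adjusted p = 0.012).

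**Figure D4:**
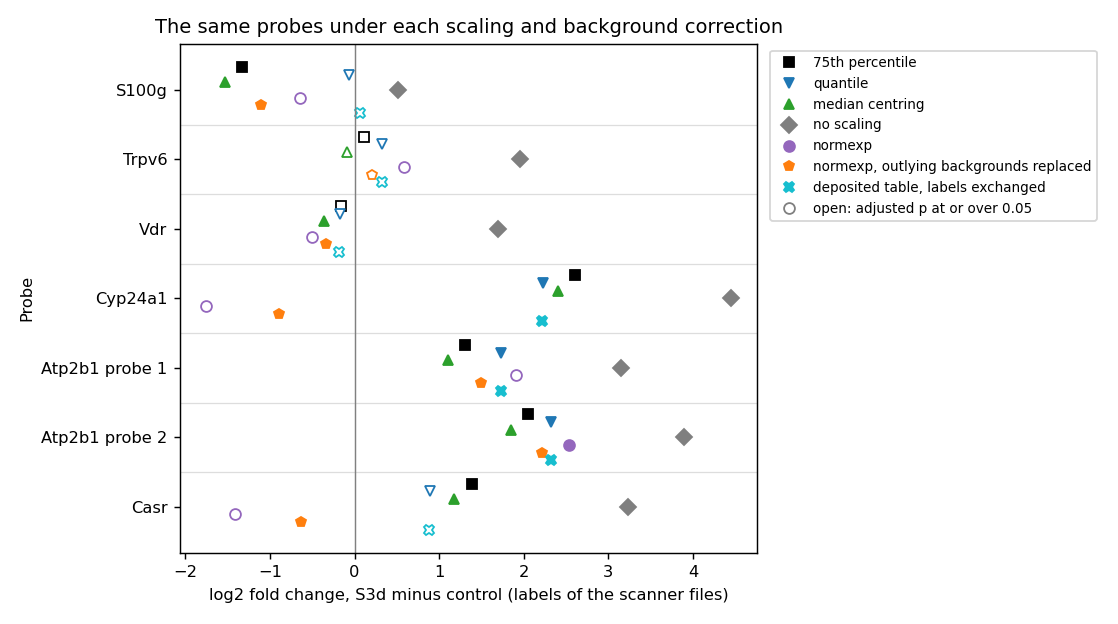
Log2 fold change of S3d minus control (horizontal axis) of each probe (vertical axis) by the labels of the scanner files, under 6 ways of scaling and background correction and in the deposited table with its labels exchanged, with filled symbols at an adjusted p under 0.05. Both Atp2b1 probes stay above 1 in all of these (the deposited table by its own labels, not drawn, gave -1.73 and -2.32), S100g runs from -1.53 to 0.52, and Cyp24a1 and Casr fall below 0 under both normexp settings.

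Trpv6 is shown by its promoter because vitamin D acts on this gene through its upstream sequence and the reference table holds it. The 250 bases before its start were taken from RefSeq on GRCr8 (chr4:71489668-71489917, minus strand, written 5′ to 3′). Half-sites of the vitamin D receptor, searched on both strands, are in capitals. The forms searched were AGGTCA, the variant GGGTCA, the variant AGTTCA and the variant GGTTCA, none of which overlapped another in these windows.
Trpv6: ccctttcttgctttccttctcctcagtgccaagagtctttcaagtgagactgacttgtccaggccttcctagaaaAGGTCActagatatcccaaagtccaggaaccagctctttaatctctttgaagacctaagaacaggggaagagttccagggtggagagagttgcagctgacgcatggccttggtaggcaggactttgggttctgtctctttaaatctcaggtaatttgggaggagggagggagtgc

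The window held 1 half-site, at positions -175 to -170 from the start, and no pair of half-sites in the DR3 arrangement, the direct repeat with 3 bases between. The same windows of Vdr and Casr held 1 half-site each and those of Atp2b1 and Rxra held 0. Of 33469 promoter windows of this length in the table, 39.1% held at least 1 of the 4 half-sites, 14.1% held AGGTCA and 0.0926% held a DR3. A match is a description of the letters, and sequence further upstream than these windows was not searched. The table holds no window of S100g or Cyp24a1.

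The other genes of calcium absorption and the vitamin D response were taken from 7 lists of 72 genes, of which 64 had a named probe and 58 were tested, each on its brightest probe. Of the 58, 18 were higher, 23 lower and 17 not called, with a median log2 fold change of -0.07, close to the 0.08 of all tested probes. The groups did not overlap for 44 of the 57 with a value on every array, or 77.2%, against 78.9% of all such probes. The share called was 70.7%, against 74% of all tested probes, 39.5% higher and 34.5% lower. The counts of each list below are to be read beside these shares. Without scaling the list medians were all positive, 1.24 to 2.12, around the 1.93 of all tested probes, and normexp with outlying backgrounds replaced turned transcellular transport to -0.12 and calcium hormones to -0.75. The deposited table by its own labels turned every list median except that of the other Vdr targets.

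**Figure D5:**
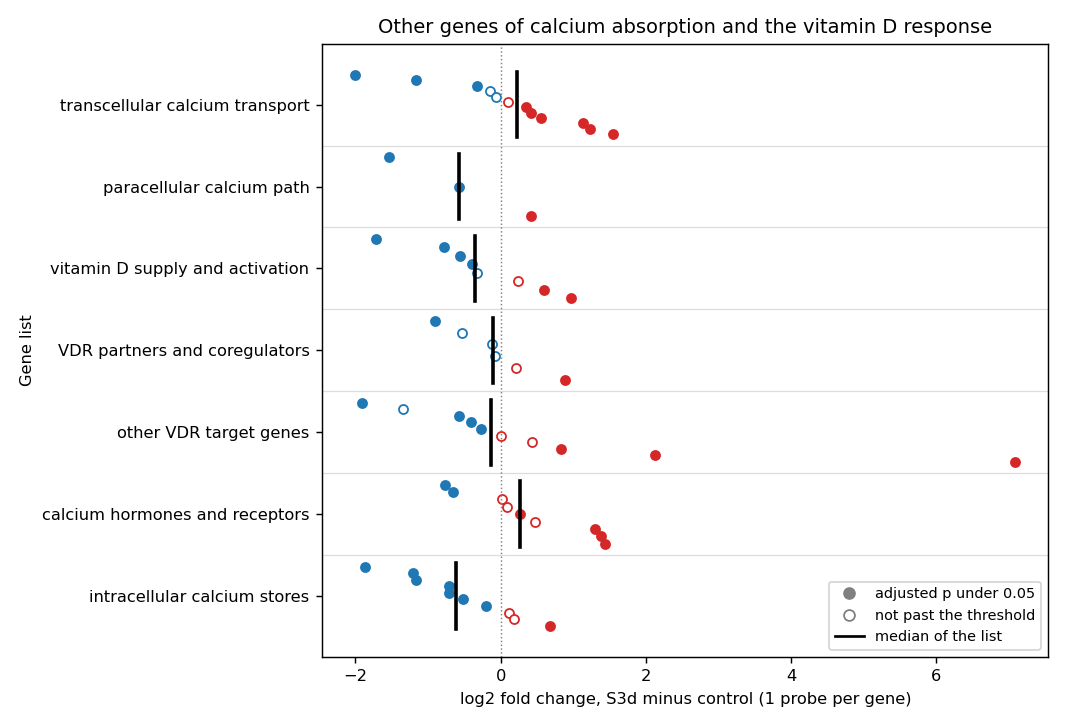
Log2 fold change of S3d minus control (horizontal axis) of the 58 tested genes of 7 lists (vertical axis), 1 point per gene, filled at an adjusted p under 0.05; black bars are list medians. Points lie on both sides of 0 in every list, and intracellular calcium stores hold 7 lower genes of 10.

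Transcellular calcium transport, the path that Trpv6, S100g and Atp2b1 serve, had 12 further tested genes, 6 higher and 3 lower, with a median of 0.22. Calm2 and Calm3 encode the same protein, the calcium sensor calmodulin, which binds Trpv6 and activates the pump. Calm2 was higher (log2 fold change 1.14, limma adjusted p = 9e-05) and Calm3 lower (-1.16, adjusted p = 2.8e-05). Whether the probes bind each other's transcripts was not tested. Without scaling Calm3 turned to 0.69, below the 1.93 of the median probe.

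Of the other pumps of the Atp2b family, only Atp2b3 was clear on all arrays, and it did not pass the test (-0.06, adjusted p = 0.78). Atp2b4 was clear on the control arrays and on no S3d array, at least 1.95-fold lower in the S3d group. Atp2b2 was clear on no control array, at least 1.74-fold higher. Each passed the filter on dim probes only through the group where it was higher. The renal channel Trpv5 was well above background on no control array and 1 S3d array and was not tested.

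The paracellular path runs between the cells through claudins. Cldn2, which forms pores for cations, was lower (-1.54, limma adjusted p = 0.00012), and its other probe gave -1.79. Cldn15 was lower too (-0.57, adjusted p = 0.0012). Cldn12 was higher at its brighter probe (0.42, adjusted p = 0.011), while its other probe gave -0.06 (adjusted p = 0.69). The call was lost with median centring (0.22, adjusted p = 0.088) and over the mean of both probes (0.18, adjusted p = 0.1).

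Vitamin D supply and activation had 8 tested genes, 2 higher and 4 lower, with a median of -0.36. Cyp27b1, which makes the active hormone, was higher, with means of -2.33 and -1.36 in the control and S3d groups (n = 3 each) and no overlap. The difference was 0.97 (limma adjusted p = 0.00035), against a median of 0.09 in probes of that level. Cubn, which takes up the vitamin D binding protein, was lower (-1.71, adjusted p = 0.0074), at 2.23, 3.18 and 3.30 against 0.59, 1.64 and 1.35.

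Among partners and coregulators of Vdr, 6 genes were tested, 1 higher and 1 lower. Rxrg, a relative of Rxra, was higher (0.89, limma adjusted p = 0.00028), and with normexp and outlying backgrounds replaced it was -0.12. Its other probe gave 2.08 but was clear on no control array, and probes of that level had a median of 2.13. Crebbp, a coactivator, was lower at all 3 of its probes, with -0.91 at the brightest (adjusted p = 6.5e-05). Rxrb, the other relative of Rxra, gave -0.08 (adjusted p = 0.31).

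Other target genes of Vdr moved both ways, with 3 higher and 4 lower of 10 tested and a median of -0.13, which quantile normalization turned to 0.52. Slc34a2, a phosphate transporter, was higher (2.13, limma adjusted p = 0.00028), but its other probe gave 0.47 (adjusted p = 0.17). Cdkn1a, a cell cycle inhibitor, was lower at both probes (-1.91, adjusted p = 1.5e-05, and -1.11).

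Calcium hormones and their receptors had 9 tested genes, 4 higher and 2 lower, with a median of 0.27. Of the 4 higher genes, Fgf23, Kl and Stc2 were clear on no control array and at least 1.69-fold, 1.67-fold and 1.36-fold higher. They passed the filter on dim probes through the S3d group alone. Their measured values were 1.377, 1.437 and 1.295. Of all tested probes, those with a mean level under -6 had a median of 2.13, and those from -6 to -5 had 0.88. Pth1r, the parathyroid hormone receptor, was at 0.27 (limma adjusted p = 0.044), and Stc1, a calcium-regulating hormone, at -0.76 (adjusted p = 0.016). Pth1r lost its call without control replicate 2 or 3 or S3d replicate 1 or 3 (adjusted p = 0.092 to 0.13) and with median centring (0.07, adjusted p = 0.57). Stc1 lost its call without control replicate 1 or 2 or S3d replicate 3 (adjusted p = 0.051 to 0.053). With quantile normalization, which called 35% of all tested probes higher and 35.6% lower, none of these 9 genes was higher (limma) and 2 were lower. With normexp and outlying backgrounds replaced, 0 were higher and 5 lower, against 21% and 60.4% of all tested probes.

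Intracellular calcium stores had 10 tested genes, 1 higher and 7 lower, with a median of -0.61. Of all tested probes 39.5% were higher and 34.5% lower. Calr, a calcium-binding chaperone of the endoplasmic reticulum, was lower (-1.87, limma adjusted p = 3.7e-05), at 5.49, 5.49 and 5.20 against 3.63, 3.38 and 3.56. The store pump Atp2a2 was lower as well (-1.20, adjusted p = 0.00017). Probes of its level had a median of -0.57 and a 10th percentile of -1.52. Stim2, a sensor of store calcium, was higher (0.68, adjusted p = 0.00068). With quantile normalization 2 genes were higher and 5 lower.

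Markers of the villus enterocyte, the cell that absorbs calcium, were lower with S100g. Of 10 tested markers 8 were lower and 1 higher, with a median of -1.03, against 34.5% of all tested probes lower and 39.5% higher. Their summed level in multiples of the 75th percentile was 3510 to 3910 on the control arrays and 1520 to 1570 on the S3d arrays. Most of these markers were bright. The median of all tested probes fell from -0.57 at a mean level of 5 to 6 to -1.32 at 8 or more. The part of this course in the markers was not tested. With quantile normalization 2 of the villus markers were lower and 3 higher, with a median of 0.01. Without scaling 9 were higher with a median of 0.82, below the 1.93 of all tested probes. Markers of the distal small intestine were lower in 4 of 5 and higher in 1 (median -1.71, summed 25.1 to 28.8 against 12.4 to 14.3). Crypt markers were higher in 4 of 5 and lower in 1 (median 0.46, summed 40.8 to 44.4 against 46.9 to 48.3). With median centring 2 crypt markers were higher and 1 lower, and with quantile normalization 3 were higher and 0 lower. In the deposited table by its own labels, 0 crypt markers were higher and 3 lower, and 4 distal markers were higher and 0 lower. The shares of all probes in these settings are given further below. The distal list shares Cubn and Lrp2 with the vitamin D supply list. Every one of these markers was well above background on at least 1 array of each group. In whole tissue, fewer cells of a type and less RNA per cell cannot be told apart, and the part of these markers in the values above was not tested.

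The genes whose levels were most like those of S100g over the 6 arrays were Xrcc1, Sgms2 and Pik3r2, each with a Pearson correlation above 0.999, out of 11404 genes compared. The arrays fall into 2 slides, and 3693 of those genes had a correlation above 0.9 with S100g, so the order describes the group difference that many genes share.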

How the data were processed

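Jejunal RNA of 3 control and 3 S3d samples was hybridised to 1-colour Agilent rat arrays. The authors deposited the scanner output of Agilent Feature Extraction 10.7.3.1. Its intensity columns used here are the background-subtracted processed signal, which is on each array's own scale, and the median signals of spot and background. The authors also deposited a table of quantile-normalized log2 values.

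Control spots and outlier spots were left out, repeated spots averaged, and log2 processed signals reduced by the 75th percentile of their array. Probes that cleared the background on every array of at least 1 group entered limma 3.58.1 (R 4.3.3; lmFit, eBayes), with Benjamini-Hochberg adjustment over 31367 probes and a call at an adjusted p under 0.05; 9645 probes were left out. The fit was tested on simulated data. Names came from the RefSeq table of GRCr8. The probes of the array are annotated on another build, so no probe coordinates are given.

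From each list, the highest and lowest called gene clear on all 6 arrays was named. Atp2b2, Atp2b3, Atp2b4, Trpv5, Cldn15, Rxrb, Fgf23, Kl, Stc2, Lrp2, Atp2a2 and Abcb1a were named after their values were seen. The members and lists were chosen with earlier results of these data known. The number of arrays limits the precision.

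Alternatives changed the scaling (quantile, median, none), the background (normexp, offset 50), the dim-probe filter, the outlier spots, the source (deposited table), the model (replicate block, array weights, intensity trend, the methods' analysis of variance), the threshold, the probe summary and the arrays, each left out once. The deposited table with exchanged labels, and normexp with outlying backgrounds replaced by the median background of the array, were added after seeing the data.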

Additional observations from a re-analysis of the deposited data

How the results depend on the processing

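Among the 7 probes, 4 were called higher and 1 lower. The count of higher calls was 7 without scaling, 1 with normexp, 2 with normexp and outlying backgrounds replaced, 2 for probes well above background on all arrays, and 0 in the deposited table by its own labels. The count of lower calls was 0 with quantile normalization, without scaling, with normexp and with the deposited table's labels exchanged, 2 with median centring, 4 with outlying backgrounds replaced and 3 in the deposited table. The share of all probes called higher and lower was 94.2% and 1.86% without scaling, 1.73% and 3.85% with normexp, 21% and 60.4% with outlying backgrounds replaced, 35% and 35.6% with quantile normalization, 31.7% and 42.3% with median centring, 35.3% and 38.6% for probes well above background on all arrays, and 35.3% and 34.7% in the deposited table (34.7% and 35.3% with its labels exchanged). Leaving out 1 array gave 3 to 4 higher and 1 to 2 lower calls, against 36.2% to 38.7% and 31.9% to 34% of all probes; the second lower call was Vdr without S3d replicate 1. Of the 58 listed genes, 18 higher and 23 lower became 52 and 0 without scaling and 0 and 0 with normexp by limma, 11 were higher when all arrays had to be above background, and 14 were lower at a fold change of at least 1.5. Over all probes, 9156 higher and 7296 lower at that fold became 28565 and 335 without scaling, 543 and 1209 with normexp, and 3282 and 12868 with outlying backgrounds replaced. The share of changed probes that were higher was 55.7%, and 98.8%, 31% and 20.3% in those settings, and 43.2% with median centring. The median of all tested probes was then 1.93, -0.69, -0.42 and -0.12, in the same order. On control replicate 3, 8 spots had a local background over 1000, up to 54705, which raised its normexp 75th percentile to 1265 beside 470.4 and 481.3 on the other control arrays, and it was 482.9 once they were replaced.

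Signs turned as follows. Without scaling, S100g was 0.52, Vdr 1.69, Calm3 0.69, Cldn2 0.31, Cubn 0.14, Crebbp 0.94 and Stc1 1.08, each below the 1.93 of the median probe. With normexp, Cyp24a1 was -1.75, Casr -1.41, Cyp27b1 -0.0066, Rxrg -0.83 and Pth1r -0.63, and with outlying backgrounds replaced Cyp24a1 was -0.89, Casr -0.63, Rxrg -0.12 and Pth1r -0.17. Calls were lost without a change of sign for 13 of the probes and named genes with normexp. They were also lost for Cdkn1a (-0.07) and Calr (-0.02) without scaling. In the analysis of variance of the methods, Casr, Pth1r and Stc1 lost their calls (adjusted p = 0.083, 0.071 and 0.052). Trpv6 was -0.0942 with median centring and -0.0876 without control replicate 2, with 0.208 the highest value when 1 array was left out. In the deposited table by its own labels, Trpv6 was -0.33, Vdr 0.18, Cyp24a1 -2.22, the Atp2b1 probes -1.73 and -2.32, Casr -0.89, Calm2 -1.68, Calm3 0.59, Cldn12 -0.43, Cldn2 1.49, Cyp27b1 -0.86, Cubn 1.57, Rxrg -0.62, Crebbp 0.80, Slc34a2 -2.02, Cdkn1a 1.56, Pth1r -0.13, Stc1 1.02, Stim2 -0.63 and Calr 1.45. With its labels exchanged S100g was 0.0618. Causes were not tested. The replicate block gave 3 higher member calls, since Casr lost its call (adjusted p = 0.077), and 22211 of all probes called rather than 23202. Arrays with the same replicate number deviated with correlations of 0.02, 0.02 and -0.05, so the numbers do not pair the samples. No fit with slide as a block could be made, because each slide carried a single group.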

Other observations

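Abcb1a, which encodes the drug efflux pump P-glycoprotein and is a target of Vdr, had the highest difference of all listed genes. It read -7.67, -7.36 and -6.06 on the control arrays, where it was not well above background, and 0.37, 0.29 and -0.49 on the S3d arrays. Against the lowest clear signal of the control arrays it was at least 68-fold higher. The limma adjusted p of 4.8e-05 belongs to the measured values, and the probe passed the filter on dim probes through the S3d group alone. The array held 1 named probe of this gene.

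Of the other cell types, enteroendocrine markers were lower in 4 of 7 and higher in 1 (median -0.81), and leukocyte markers lower in 5 of 6 and higher in 1 (median -0.69). Enteric neuron markers were higher in 2 of 5 with 0 lower (median 0.06, limma adjusted p under 0.05), and smooth muscle markers were higher in 2 and lower in 2 of 6 (median 0.10). Proximal small intestine markers were higher in 2 and lower in 1 of 4 (median 0.25). Of all tested probes 39.5% were higher and 34.5% lower. Without scaling, enteroendocrine and leukocyte markers each had 5 higher and 1 lower, against 94.2% and 1.86% of all tested probes. In the deposited table by its own labels, enteroendocrine markers were higher in 4 and lower in 2, and leukocyte markers higher in 4 and lower in 1.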
